A study of Mus musculus with 67 samples.

Results

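The change from the 8-cell stage to the morula was examined in mouse embryos that had been exposed to strong light earlier, at the 2-cell stage. Of the 67 libraries of the study, the 14 whose titles name the light group at one of these stages were taken, 8 from the 8-cell stage (numbered 5 to 12) and 6 from the morula stage (numbered 1, 3, 5, 6, 9 and 12). The embryos were C57BL/6, made by fertilization in vitro. Light embryos had stood for 6 h under 5000 lx as 2-cell embryos and were returned to a dark incubator, so that the exposure had ended before either stage was reached, and control embryos were kept in the dark throughout. The methods describe single cells picked from dissociated embryos, whereas the labels call each library an embryo. No litter or culture is named. Only embryos that had reached a stage could be sampled at it. The control group supplied 4 libraries of the 8-cell stage and 13 of the morula stage, which are used below only to show where the light transition differed from the control transition.

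In the mouse, blastomeres flatten against each other at the 8-cell stage, a process called compaction that rests on E-cadherin, and acquire an apical and a basal side. At the following divisions, outer cells become trophectoderm, the epithelium that forms the placenta and pumps fluid into the blastocyst cavity, and inner cells become the inner cell mass. Outer cells keep the Hippo pathway off, and the coactivator Yap1 then works with Tead4 to turn on Cdx2 and Gata3, while Pou5f1 (Oct4), Nanog and Sox2 mark the pluripotent cells.

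The light libraries held 1824496 to 8551674 reads, of which 68.9% to 80.7% lay on CT010467.1 and Gm42418, a pair of loci of ribosomal RNA sequence that were left out. The remaining reads numbered 466903 to 2235895 per library, and 10490 to 13998 genes had at least 1 read. Y-linked genes reached 10 CPM (counts scaled to library size) in 3 of the 8 light 8-cell libraries and in 1 of the 6 light morulae. The libraries of a light group therefore did not all come from 1 embryo. In control, 0 of the 4 8-cell and 0 of the 13 morula libraries reached it, so these reads cannot show the same there. Libraries that reached 10 CPM of Y-linked reads were thus found in light only, while some control libraries had such reads under it, up to 1.41 CPM. The number of embryos behind a group is not given. P-values treat each library as 1 independent replicate, and if cells of 1 embryo were among them the p-values are too small. Values are given as scaled values, the deposited values of a library divided by its median ratio to the other libraries. They show shares of the RNA of a library, so that fewer cells of a type and less RNA per cell cannot be told apart, nor can a change in the total RNA of a cell be seen. They were not divided by gene length, and levels are therefore compared between libraries and not between genes.

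Cdx2, Gata3, Krt8 and Krt18, 4 trophectoderm genes that each rose in light morulae as described below, are shown here by their promoter windows. Trophectoderm genes that fell, such as Hand1 and Ascl2, or were not called, such as Tead4 and Tfap2c, are not shown. The windows run from 250 bases before to 50 after the start of the gene. They are read 5′ to 3′ along the gene from the RefSeq table of build GRCm38.p6. This build is not the one named for the expression table, and these coordinates belong to the reference alone. Capitals mark GCCNNNGGC, the motif of TFAP2 factors such as Tfap2c, a transcription factor of trophoblast. The motif reads the same on both strands.
Cdx2 (chr5:147307200-147307499, minus strand): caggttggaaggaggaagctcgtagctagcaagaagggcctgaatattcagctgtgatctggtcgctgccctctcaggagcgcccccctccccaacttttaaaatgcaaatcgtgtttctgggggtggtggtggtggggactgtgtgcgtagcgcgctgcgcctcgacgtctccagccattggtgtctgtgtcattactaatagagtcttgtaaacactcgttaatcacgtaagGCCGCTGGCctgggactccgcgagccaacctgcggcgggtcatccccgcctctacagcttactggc
Gata3 (chr2:9878551-9878850, minus strand): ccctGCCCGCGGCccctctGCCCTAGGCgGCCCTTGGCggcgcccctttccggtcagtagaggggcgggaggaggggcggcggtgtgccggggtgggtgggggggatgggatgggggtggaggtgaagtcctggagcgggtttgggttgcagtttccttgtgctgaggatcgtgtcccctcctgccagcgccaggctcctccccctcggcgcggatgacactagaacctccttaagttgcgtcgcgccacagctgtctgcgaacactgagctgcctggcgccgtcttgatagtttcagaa
Krt18 (chr15:102027966-102028265, plus strand): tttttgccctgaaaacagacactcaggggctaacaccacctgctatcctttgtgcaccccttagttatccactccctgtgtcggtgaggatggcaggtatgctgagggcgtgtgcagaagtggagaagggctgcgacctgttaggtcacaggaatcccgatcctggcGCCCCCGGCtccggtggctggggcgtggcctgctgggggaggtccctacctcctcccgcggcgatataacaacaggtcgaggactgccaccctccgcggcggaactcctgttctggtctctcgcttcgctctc
Krt8 (chr15:102004293-102004592, minus strand): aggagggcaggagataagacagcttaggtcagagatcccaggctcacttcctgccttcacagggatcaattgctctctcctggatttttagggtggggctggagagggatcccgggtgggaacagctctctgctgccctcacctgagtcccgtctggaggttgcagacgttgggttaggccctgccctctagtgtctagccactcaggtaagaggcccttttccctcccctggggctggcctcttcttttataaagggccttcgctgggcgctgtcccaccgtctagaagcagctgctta
Gata3 held 3 such matches, Cdx2 and Krt18 held 1 each, and Krt8 held 0. Of all 27025 windows of this length in the table, 16.5% held a match. GGAATG, the motif of TEAD factors, was searched on both strands as well, occurred in 14.6% of all windows and was in none of the 4 shown. A match describes the letters of the window and was not linked to the expression values by any test.

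The stages stood apart. Squared distances between libraries on the log2 scale, over the 14706 genes tested, lay between the stages to a share of 21.96%, the highest share among all 3003 regroupings of the 14 libraries (one-sided exact permutation test, p = 0.000333, the smallest it can give). The first principal component carried 22.8% of the variance and separated the 8 libraries of one stage from the 6 of the other with no overlap. The second component carried 9.95% and spread the morulae, with morula 1 at 96.5 and morula 9 at -78.4. Each 8-cell library correlated more closely with the other 8-cell libraries (median r of 0.807 to 0.838 across genes) than with the morulae (0.733 to 0.773), and the morulae likewise reached 0.792 to 0.823 among themselves and 0.717 to 0.779 with the 8-cell libraries. Morula 1 was also the library with the fewest reads in total and the fewest genes detected. Outside the ribosomal RNA loci it had 490954 reads, and morula 9, at the other end of the second component, had the fewest (466903). The part of depth in these positions was not tested.

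**Figure D1:**
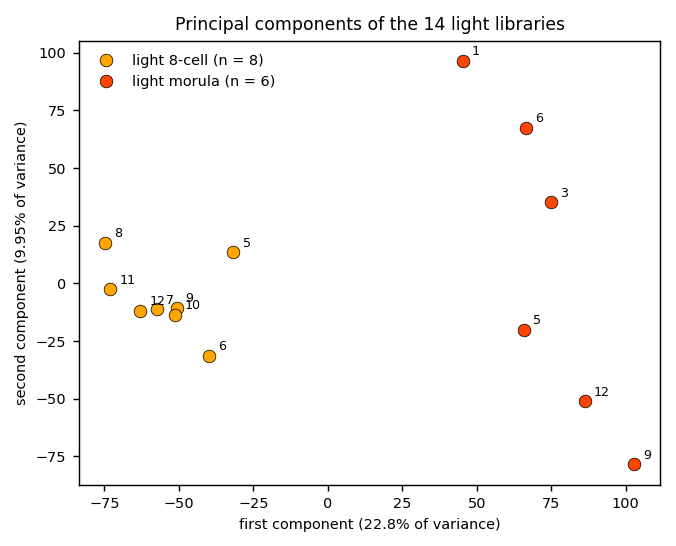
The first (x axis) and second (y axis) principal components of log2(scaled value + 1), in arbitrary units, for the 14 light libraries, 1 point per library with its number. The 8-cell libraries lie to the left of all morulae on the first component, and morula 1 (96.5) and morula 9 (-78.4) lie at the ends of the second.

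Between light 8-cell embryos and light morulae, 840 genes rose and 861 fell among the 14706 tested, with an adjusted p under 0.05 in limma (Benjamini-Hochberg over all genes tested) and a change of at least 2-fold on the log2(scaled value + 1) scale. Together the 1701 calls are 11.6% of the genes tested, 5.71% higher and 5.85% lower. At least 4-fold changes numbered 490 upwards and 377 downwards. Of the called genes, 498 had every library of one stage above every library of the other, 220 higher and 278 lower, against 567 (3.86%) among all tested, 1.79% higher and 2.07% lower. Without morula 1, the count was 960 higher and 846 lower, and 1075 genes were called with each of the 14 libraries left out in turn. The split between directions depended on the scale. It was 667 higher and 1041 lower on the deposited scale, which is set by the ribosomal RNA loci.

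The largest rises that held with every library left out started from 8-cell medians of 0 to 28.9. Lrp2 encodes megalin, an endocytic receptor of absorptive epithelia, and had scaled values of 6.599 at the lowest, 28.9 at the median and 76.7 at the highest 8-cell library, against 261, 1172 and 1959 in morulae. The log2 fold change was 5.01 ± 0.50 (SE, limma adjusted p = 2.6e-07), and every morula lay above every 8-cell library. Elf3, an epithelial transcription factor, went from a median of 4.52 (0 to 23.3) to 197 (85.4 to 436), a log2 fold change of 5.29 ± 0.64. Pgap1, an enzyme that remodels GPI anchors, had a median of 0.230 (0 to 1.16) at the 8-cell stage and of 74.5 (35.7 to 187) in morulae. Ass1, which makes argininosuccinate in arginine synthesis, had a median of 4.41 (1.55 to 56.6) and then of 252 (98.7 to 507).

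Ppp1r3b targets a phosphatase to glycogen and rose from a mean of 0.955 ± 1.41 (SD, n = 8) to 65.0 ± 47.1 (SD, n = 6). Gss encodes glutathione synthetase. It had no read in any of the 8 8-cell libraries and 275 reads in the morulae, where it lay between 12.8 and 50.9, so that it was at least 189-fold higher, with a floor of 3 reads over the 8-cell group that covers counting error only. Ly6a, a GPI-anchored surface protein, rose by 4.63 ± 0.62 on the log2 scale. Ccng1 encodes cyclin G1, a target of p53, and had a median of 26.4 (2.30 to 171) at the 8-cell stage and of 437 (201 to 812) in morulae. The values of the groups did not overlap for any of these 8 genes, which the rule that chose them required.

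Among the genes that fell, Exoc3l2, a relative of the exocyst subunit Sec6, had a median of 380 (205 to 397) at the 8-cell stage and of 9.94 (5.48 to 16.6) in morulae, a log2 fold change of -5.06 ± 0.28 (limma adjusted p = 5.86e-12). Klf17, a Krüppel-like factor of early embryos, went from a median of 228 (85.3 to 521) to 9.71 (2.94 to 15.3), a log2 fold change of -4.68 ± 0.38. Spic, an Ets factor, had values of 213 to 761 at the 8-cell stage and of 0 to 133 in morulae. The 6 morulae were far apart for Spic, with a median of 18.7, yet all lay under the lowest 8-cell library. Hand1, a helix-loop-helix factor of trophoblast giant cells, was present in all 8-cell libraries at 16.5 to 101 and lay at 0 to 3.28 in morulae. Ppp1r16b, a phosphatase subunit, fell by 5.01 on the log2 scale. The LIM protein Fhl3, the kinase gene Prkcd and the collagen chaperone gene Fkbp10 had log2 fold changes of -4.80, -4.58 and -4.57.

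**Figure D2:**
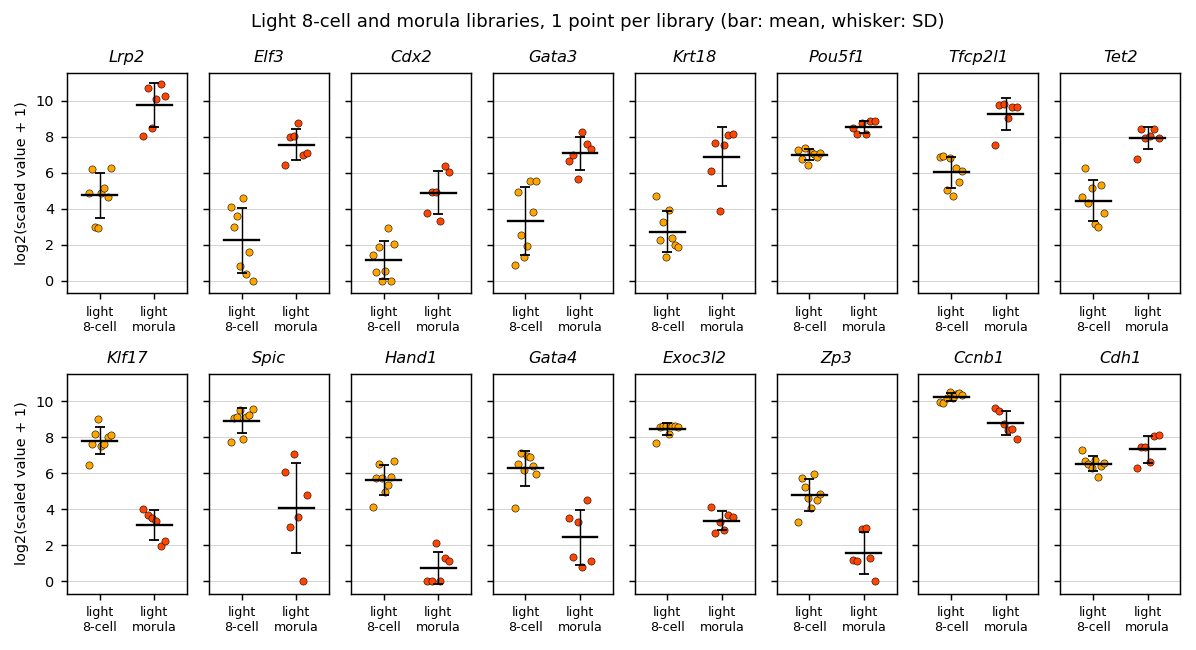
Log2(scaled value + 1) of 16 genes, 1 point per library, in the 8 light 8-cell and the 6 light morula libraries. Horizontal bars are means and whiskers are SD. The upper row holds genes that rose, such as Lrp2 and Cdx2, and the lower row genes that fell, except Cdh1, which was not called.

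Factors of the trophectoderm moved both ways. Of the 20 genes of this list, 15 were tested, 5 rose and 2 fell. Over all genes tested, 5.71% rose and 5.85% fell, and the counts of this and the later lists are to be read beside these shares. The list had a median log2 fold change of 0.95, and all genes tested had one of 0.05. Cdx2, the transcription factor that commits outer cells to trophectoderm, had a median of 1.11 (0 to 6.55) at the 8-cell stage and of 29.6 (9.11 to 82.3) in morulae, without overlap. Its log2 fold change was 3.74 ± 0.67 (limma adjusted p = 0.000433). Gata3, which acts beside Cdx2, had a median of 8.95 (0.870 to 46.4) and then of 141 (48.7 to 310), a log2 fold change of 3.76 ± 0.65. The highest 8-cell library for Gata3, at 46.4, came close to the lowest morula at 48.7. Dab2, the adaptor that works with megalin in endocytosis, rose by 2.64 ± 0.49 and Id2, an inhibitor of helix-loop-helix factors, by 2.20 ± 0.68. Id2 was not called without 8-cell library 7 or 11 or without morula 9 or 12, where its log2 fold change was 1.67 to 2.17 (limma adjusted p of 0.0521 to 0.0800).

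Hand1 and Ascl2, both helix-loop-helix factors known from the later placenta, were the members that fell. For Ascl2, 91 reads in the 8-cell libraries stood against 1 read in the morulae, a ratio of 43.5 with a 95% counting interval of 7.81 to 1719. Tead4 (log2 fold change -0.56 ± 0.34), Tfap2c (0.86 ± 0.33) and Eomes (1.78) did not pass. Without morula 1, 8 trophectoderm factors were called higher in place of 5.

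Keratins and desmosome genes, parts of the epithelial cytoskeleton and its junctions, had 4 of 8 tested members higher and 0 lower, of 12 listed, with a median of 2.54. Krt18 had a median of 4.09 (1.55 to 25.2) at the 8-cell stage and of 192 (13.6 to 283) in morulae. Morula 5, the lowest, was the single morula inside the 8-cell range. Its partner Krt8 had a median of 5.42 (2.21 to 26.6) and then of 74.4 (6.56 to 291), a log2 fold change of 2.78 ± 0.71 (limma adjusted p = 0.00931). The desmosomal genes Pkp2 and Dsp, which tie keratins to the membrane, had log2 fold changes of 4.22 and 3.14. Pkp2 was without overlap, from 0 to 4.41 at the 8-cell stage and from 18.3 to 58.5 in morulae.

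Junction genes changed unevenly. In the list for adherens junctions and compaction, 5 of 25 tested rose and 1 fell, with a median of 0.80. Fat1, a giant protocadherin, rose from a mean of 64.4 ± 65.0 to 307 ± 90.7. Myh9, the heavy chain of non-muscle myosin IIA, had values of 11.0 to 46.6 at the 8-cell stage and of 68.9 to 202 in morulae. Epb41l5, which links the membrane to actin, rose by 1.95 ± 0.43, Ctnna1 (alpha-catenin) by 1.16 ± 0.28 and the myosin light chain gene Myl12a by 1.09 ± 0.33. Rdx, encoding radixin, fell by 2.01 on the log2 scale, and was not called without morula 1 or without morula 3 (-1.67 to -1.39). Myl12a was not called without 8-cell library 7 or 9 or without morula 1, 3 or 9 (0.97 to 1.04). E-cadherin itself, Cdh1, had a median of 92.5 (53.3 to 155) and then of 173 (77.8 to 279), and was not called (0.80 ± 0.30, limma adjusted p = 0.0746), nor was Ctnnb1 for beta-catenin (0.78 ± 0.29). Both log2 fold changes lay under the 2-fold limit, which alone kept Cdh1 from a call by DESeq2 (0.89, adjusted p = 0.0227) and Ctnnb1 from one with quantile normalization (0.83, limma adjusted p = 0.0487).

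For tight junctions and polarity, 5 of 22 tested rose and 3 fell, against 5.71% and 5.85% over all genes, with a median of 0.20. Polarity genes were among those that rose, with Pard3 from 1.74 to 19.0 in 8-cell libraries and from 29.3 to 151 in morulae, Pard6b at 2.53 ± 0.75 and the kinase gene Prkci at 1.93 ± 0.51. Tjp3, encoding the scaffold ZO-3, had a log2 fold change of 2.38. Tjp1, which encodes ZO-1, went the other way from a median of 96.6 (44.3 to 171) to 39.4 (12.8 to 45.5), a log2 fold change of -1.45 ± 0.36, as did F11r (JAM-A) at -1.09 ± 0.27 and Crb3, a polarity gene, at -1.08 ± 0.35. Several of these calls rested on single libraries. The number that rose was 3 without morula 9 or without morula 12, 3 by edgeR, and 1 when only libraries under 10 CPM of Y-linked reads were kept. Pard6b was not called without morula 5, 9 or 12 (2.29 to 2.35, limma adjusted p of 0.0642 to 0.0682). F11r was not called without morula 1 (-0.98). The call of Crb3 was lost without any 1 of 8-cell libraries 5, 6, 7, 9, 10 and 11 and of morulae 5, 6 and 9, with a log2 fold change of -0.68 without morula 6 (limma adjusted p = 0.113).

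In the Hippo pathway, 2 of 27 tested genes rose and 4 fell, with a median of 0.01. The share that rose was near that over all genes (5.71%), and over all genes 5.85% fell. Yap1 went from a median of 79.7 (34.8 to 153) to 38.0 (16.5 to 45.5), a log2 fold change of -1.25 ± 0.33 (limma adjusted p = 0.0129). Nf2, encoding Merlin, which activates the kinases upstream of Yap1, fell by 1.55 ± 0.28 and Mob1b, a kinase activator, by 1.34 ± 0.39. Ajuba, a LIM protein that binds the Lats kinases, fell by 1.24 ± 0.42. Stk3, the kinase Mst2, rose by 2.75 ± 0.71. Ptpn14, a phosphatase that binds Yap1, had 2 reads in the 8-cell libraries and 135 in the morulae, a ratio of 141 with a 95% counting interval of 39.1 to 1165. Values of Lats2 (-0.59 ± 0.40) and Amotl2 (-1.19 ± 0.51) did not pass. Mob1b was not called without morula 1 or 6 (-1.10 to -1.03), and Ajuba without any 1 of 8-cell libraries 6, 7, 9, 10, 11 and 12 and of morulae 1, 3 and 9 (-1.22 to -1.003). Leaving out morula 1 brought the number that fell to 2, and leaving out 8-cell library 8 brought it to 6.

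Genes for the fluid of the blastocyst cavity were mostly not called or lower. Of 13 listed, 8 were tested, 1 rose and 3 fell, with a median of -1.002. The sodium pump subunits moved apart. Atp1b1, the beta 1 subunit of trophectoderm, rose from a median of 4.17 (1.00 to 19.6) to 29.9 (11.4 to 97.0), while Atp1b3, the beta 3 subunit, fell from 332 (161 to 547) to 91.7 (48.7 to 149) with no overlap. The water channel genes Aqp11 and Aqp9 had log2 fold changes of -3.86 ± 0.63 and -1.80 ± 0.50. Aqp3, another water channel, was not called in light (0.81 ± 0.48).

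Pluripotency genes were split as well. Of 26 listed, 21 were tested, 3 rose and 6 fell, against 5.71% and 5.85% over all genes, with a median of -0.03. Pou5f1 had values of 87.0 to 163 at the 8-cell stage, with a median of 132, and of 285 to 466 in morulae, with a median of 401. Every morula lay above every 8-cell library (log2 fold change 1.56 ± 0.21, limma adjusted p = 2.12e-05). Tfcp2l1, a factor of naive pluripotency, had a median of 71.7 (25.7 to 121) and then of 793 (185 to 916), and morula 1 was the lowest of the 6. Zfp42 (Rex1), a marker of pluripotent cells, rose by 2.12 ± 0.41. Nanog stayed low, at 0 to 24.4 in 8-cell libraries and 0 to 24.8 in morulae (0.43 ± 0.85). Sox2 had 1 read over the 8-cell libraries and 2 over the morulae and was not tested.

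Besides Klf17 and Spic, the pluripotency genes that fell were Tdgf1, Fgf4, Klf2 and Dppa2. Tdgf1 encodes the Nodal coreceptor Cripto and had a median of 442 (10.9 to 593) and then of 30.5 (7.44 to 150), with 8-cell library 8 as low as the morulae. Fgf4, the ligand that inner cells send to their neighbours, went from a median of 15.4 (0.459 to 47.4) to 0.196 (0 to 1.47). Klf2, a factor of naive pluripotency, fell by 1.91 ± 0.42 and Dppa2, an activator of early embryonic genes, by 1.13 ± 0.28, or by 0.85 without morula 9, where it was not called. In the list for FGF signalling, 1 of 18 tested rose and 3 fell, against 5.71% and 5.85% over all genes. Those that fell were Fgfr4 at -3.33 ± 0.71 and the adaptor gene Grb2 at -1.75 ± 0.29 beside Fgf4. The receptor Fgfr2 was not called (0.43 ± 0.66).

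Primitive endoderm, the second lineage of the inner cell mass, had 1 of 10 tested genes higher and 1 lower. For so few genes this is near the share over all genes (5.71% and 5.85%). Gata4, one of its factors, was already present in 8-cell libraries at a median of 87.2 (15.7 to 140) and went to 5.24 (0.759 to 22.0). Lamc1, a laminin chain, rose by 3.02 ± 0.75. Gata6 had a median of 102 (38.0 to 151) and then of 167 (82.9 to 282) and was not called (0.76 ± 0.31), nor was Pdgfra (0.76 ± 0.78).

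Lists of RNAs inherited from the oocyte held few calls, at about the share over all genes (5.71% higher and 5.85% lower). In the oocyte and zona pellucida list 0 of 14 tested rose and 1 fell, with a median of -0.78. Zp3, which encodes a protein of the egg coat, went from a median of 25.8 (8.70 to 61.3) to 1.37 (0 to 6.83). The growth factor genes Gdf9 (-1.08 ± 0.65) and Bmp15 (-0.85 ± 0.59) were low in both groups and not called. Of 10 tested genes of the subcortical maternal complex, a protein assembly of the egg and early embryo, 1 rose and 0 fell. That gene was Khdc3, from a median of 63.4 (12.9 to 101) to 227 (188 to 400). Of 18 tested genes of maternal RNA storage and decay, Cnot8, a deadenylase, was the 1 that fell (-1.15 ± 0.28), and it was not called without morula 3 (-0.89).

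Genes expressed transiently at the 2-cell stage had 0 of 12 tested higher and 4 lower, with a median of -0.95. They were Tdpoz4 and Tdpoz1, speckle-type BTB genes of a cluster of near-identical copies whose reads may be shared, Tmem92, and the nuclear body gene Sp110. Sp110 had values of 379 to 589 at the 8-cell stage and of 39.7 to 218 in morulae. Tmem92 was not called without 8-cell library 8 or without morula 3, 5 or 9 (-2.17 to -1.93). Tdpoz4 had 740 reads in the 8-cell libraries and 2 in the morulae, a ratio of 177 with a 95% counting interval of 49.0 to 1461.

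Among enzymes of DNA methylation, 2 of 16 tested rose and 3 fell, with a median of -0.11. The dioxygenase genes Tet1 and Tet2, which oxidize methylated cytosine, changed in opposite directions. Tet2 had a median of 21.9 (6.84 to 75.1) and then of 254 (108 to 345), a log2 fold change of 3.47 ± 0.43 (limma adjusted p = 5.48e-06). Tet1 had a median of 127 (80.1 to 275) and then of 47.5 (19.1 to 95.7), a log2 fold change of -1.42 ± 0.33. Dnmt3l, the cofactor of the de novo methyltransferases, rose by 2.40 ± 0.47. Trim28 and Zfp57, which together keep methylation at imprinted loci, fell by 1.09 ± 0.20 and by 2.19 ± 0.62.

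**Figure D3:**
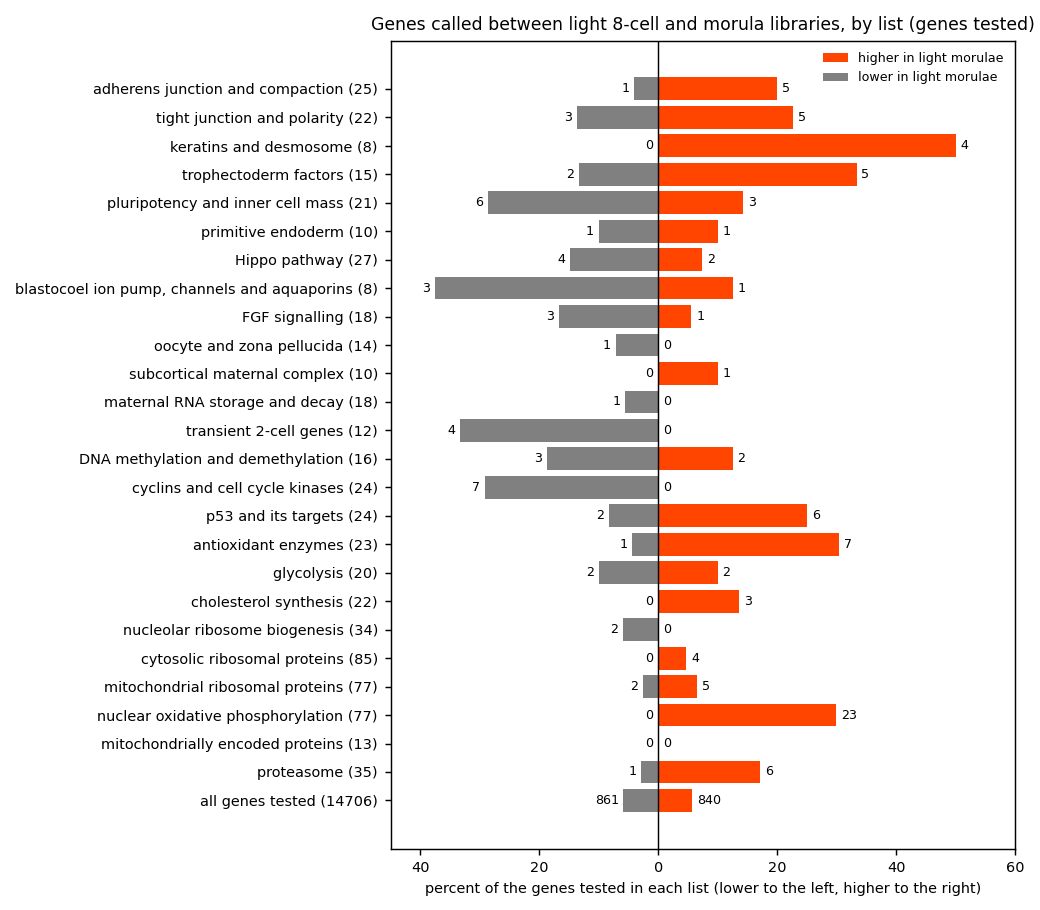
Percent of the genes tested in each of 25 gene lists, and of all 14706 genes tested, that were called higher (right, orange) or lower (left, grey) in light morulae against light 8-cell embryos. The numbers tested stand in parentheses and the numbers called at the bars, with 23 of 77 genes of nuclear oxidative phosphorylation higher and 0 lower.

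The cell cycle list held no gene that rose and 7 that fell, of 24 tested, with a median of -0.47. Ccnb1, the mitotic cyclin B1, had values of 957 to 1442 at the 8-cell stage and of 240 to 797 in morulae (log2 fold change -1.47 ± 0.22). Cdk2, a kinase of S phase, went from a median of 201 (123 to 266) to 45.8 (31.9 to 111). Its partner Ccne1 fell by 1.91 ± 0.45, and the mitotic genes Plk1, Cdc25c and Ccna2 had log2 fold changes of -1.19, -1.80 and -1.07. The inhibitor Cdkn1c fell by 2.23 ± 0.70. Ccna2 was not called without 8-cell library 8 or without morula 1 or 12 (-0.97 to -0.93), Cdc25c without any 1 of 8-cell libraries 6, 8, 9 and 10 and of morulae 5, 6 and 9 (-1.77 to -1.45), and Cdkn1c without 8-cell library 6 or 8 or without morula 1, 3, 5 or 9 (-2.17 to -1.79). The number lower was 4 without 8-cell library 8 and 8 without 8-cell library 11.

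Since the embryos had been exposed to light, genes of p53 and of the defence against oxidants were followed. Of 24 tested p53 genes, 6 rose and 2 fell, with a median of 1.06. Beside Ccng1, Pmaip1 (Noxa), which promotes apoptosis, had a median of 4.53 (0 to 39.2) and then of 140 (22.0 to 263). Trp53inp1, Perp and Btg2, all known targets of p53, had log2 fold changes of 2.29, 2.97 and 3.34. Gadd45a had no read at the 8-cell stage and 65 in morulae, at least 46.7-fold higher with the same floor. Ei24 and Mdm4, the latter an inhibitor of p53, fell by 2.20 ± 0.35 and by 1.67 ± 0.29. Trp53 itself (1.28 ± 0.65), Mdm2 (0.84 ± 0.45), Cdkn1a (0.74 ± 0.47) and Bax (-0.23 ± 0.35) were not called. In the control transition, 4 of 24 p53 genes rose and 4 fell, and limma called the difference between light and control for 0 of the 24. An unadjusted p under 0.05 for that difference was found in 6 of them, against 2654 of 17475 over all genes. By edgeR 2 were called, 2 more negative in light and 0 more positive. DESeq2 called 4, of which 1 was more positive in light and 3 were more negative. The median difference was 0.63 in limma, -0.29 by edgeR and -0.12 by DESeq2.

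Antioxidant enzymes had 7 of 23 tested higher and 1 lower, with a median of 0.93. Cat, encoding catalase, had a median of 0 (0 to 8.09) and then of 29.3 (10.6 to 36.6). Gclm, a subunit of the enzyme that limits glutathione synthesis, had a median of 7.55 (0.919 to 41.1) and then of 70.5 (57.2 to 125), and Txn1, thioredoxin, of 16.1 (0 to 42.6) and then of 122 (53.4 to 185). None of these 3 overlapped between the stages. They were named among the called members of the list, a choice that favours a lack of overlap, and 1.79% of all genes tested were higher without overlap. Hmox1, heme oxygenase 1, rose by 4.39 ± 0.84, Txnrd1 by 2.48 ± 0.62, Sod2 by 1.19 ± 0.26 and Sod1 by 1.04 ± 0.29, the last with its call lost without 8-cell library 9, 10 or 12 or without morula 6 or 12 (0.87 to 0.99). Gsr, glutathione reductase, fell by 1.41 ± 0.36. In control, 3 of 23 rose and 1 fell. The difference between light and control was called for 0 of 24 tested by limma, edgeR and DESeq2. An unadjusted p under 0.05 in limma was found for 4 of the 24, against 2654 of 17475 over all genes.

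Lists of energy metabolism and translation had medians under the 2-fold limit, while some single members changed by more. Nuclear genes of oxidative phosphorylation had 23 of 77 tested higher and 0 lower, with a median of 0.72. Their summed scaled value was 4714 to 6572 in 8-cell libraries and 7960 to 8877 in morulae, so that the stages did not overlap. Atp5d, a subunit of ATP synthase, had a median of 60.9 (33.4 to 82.8) and then of 249 (217 to 281), a log2 fold change of 2.04 ± 0.24 (limma adjusted p = 3.33e-06), and the complex IV gene Cox4i1 rose by 1.05 ± 0.20, or by 0.94 without morula 6, where it was not called. Many of the 23 lay near the 2-fold limit. On the deposited scale 14 were called, edgeR called 13, and 15 were called when only libraries under 10 CPM of Y-linked reads were kept. Of the 13 proteins encoded by mitochondrial DNA, limma called 0 higher and 0 lower, with a median of -0.03, and edgeR and DESeq2 called 0 as well. The unadjusted p was under 0.05 for 1 of the 13, against 4069 of 14706 over all genes.

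Cytosolic ribosomal proteins had 4 of 85 tested higher and 0 lower, a share no higher than that over all genes (5.71%). Of the 85, 77 had a positive log2 fold change, and the median was 0.55. A positive one was found for 7706 of all 14706 genes tested. Rpsa rose from 147 to 225 in 8-cell libraries to 349 to 438 in morulae, and Rps2, Rpl36 and Rps27l by 1.08, 1.07 and 1.05 on the log2 scale. The count of 4 moved with the processing. It was 2 without 8-cell library 6, 1 on the deposited scale, 2 by edgeR, 7 with quantile normalization and 10 when only libraries under 10 CPM of Y-linked reads were kept. Rps2 and Rpl36 were not called without 8-cell library 6 or without morula 9 (0.95 to 0.999), nor Rps27l without morula 1 or 3 (0.94 to 0.98). The summed value of the list was 20942 to 27609 at the 8-cell stage and 31945 to 36238 in morulae. Glycolysis had 2 of 20 tested higher and 2 lower, against 5.71% and 5.85% over all genes. Gapdh had a median of 16.2 (4.01 to 57.9) and then of 167 (21.7 to 577), and the glucose transporter gene Slc2a1 rose by 2.95 ± 0.93, a call that was lost without any 1 of 8-cell libraries 5, 7, 9 and 11 and of morulae 5, 9 and 12 (2.26 to 2.94). Ldhb, a subunit of lactate dehydrogenase, fell by 2.42 ± 0.56.

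The light transition was then set beside the control transition, which shares no library with it. In control, 901 genes rose and 1535 fell among 14790 tested (6.09% and 10.4%, or 16.5% together), with a split that again moved with the scale, to 1018 and 1118 on the deposited scale and to 1277 and 957 by DESeq2. Without control 8-cell library 2 the calls were 1594 in place of 2436. Of the 13262 genes tested in both, 639 were called in both in the same direction, which is 38.7% of the light calls and 28.6% of the control calls among them. Of the light calls, 88.4% had the same sign in control, against 67.2% of all genes tested in both. The numbers of libraries differ between the transitions, and so does what each could detect.

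Of the genes named above, Lrp2 (6.34), Cdx2 (4.22), Krt18 (5.16) and Tet2 (3.72) rose in control and Klf17 (-5.25), Exoc3l2 (-5.75) and Zp3 (-3.41) fell there by the given log2 fold changes. None of these 7 differed between the transitions past the threshold. For Cdx2 the difference was -0.48 with an SE of 1.41, so that a several-fold difference could have gone undetected.

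**Figure D4:**
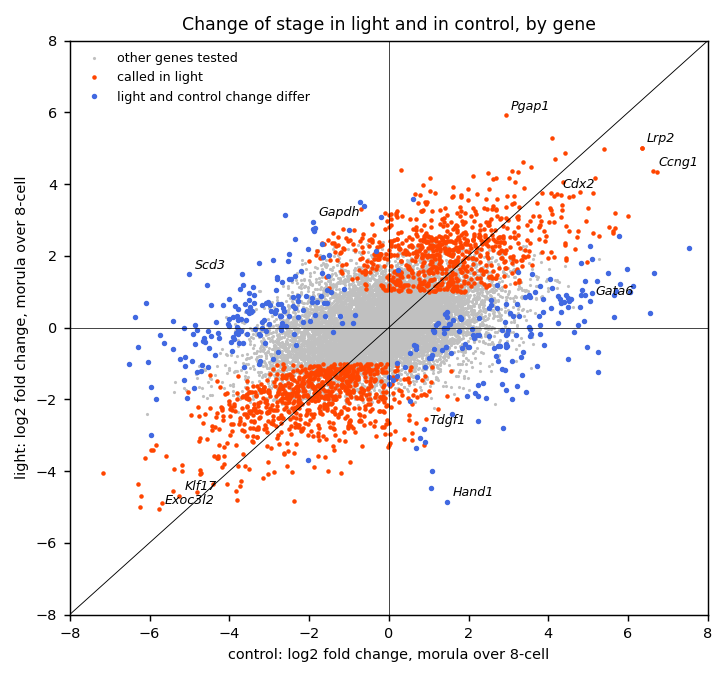
Log2 fold change from 8-cell to morula in control (x axis) and in light (y axis) for the 13262 genes tested in both, 1 point per gene, with the line of equal change. Grey points were not called in light, orange points were called in light, and blue points are genes whose change differed between the groups. Klf17 and Exoc3l2 lie at the lower left and Hand1 at the lower right.

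A test of the difference itself, the change in light minus the change in control over 31 libraries, called 456 of 17475 genes (2.61%), 288 with a more positive change in light (1.65%) and 168 with a more negative one (0.961%). This split turned with the scale. It was 208 and 250 on the deposited scale, 166 and 189 by edgeR, and 118 and 321 by DESeq2. The median over all genes was 0.19, and -0.03 on the deposited scale. Of the 456, 361 were called in the control transition only, 45 in the light transition only, 21 in both in the same direction, 8 in both in opposite directions and 21 in neither. Light and control libraries also stood apart in a technical value, the ratio of reads on Gm42418 to reads on CT010467.1, which was 1.49 to 1.71 in the 14 light libraries and 2.01 to 4.14 in the 17 control libraries. The part of library preparation in these differences was not tested, and no batch is named in the labels.

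Hand1 fell in light and had a log2 fold change of 1.46 in control, where it lay at 0 to 13.7 in 8-cell libraries and at 0 to 78.8 in morulae. The difference was -6.32 ± 1.42 (limma adjusted p = 0.00693). Gata6 rose in control from a median of 9.48 to 257 and was already at 102 in light 8-cell libraries, a difference of -4.30 ± 0.64 (adjusted p = 4.31e-05). Light and control morulae overlapped for Gata6, whereas the 8-cell libraries did not. Aqp3 had a control change of 4.58 and a difference of -3.77, with 8-cell libraries at 39.1 to 313 in light and at 0 to 59.5 in control, which overlap. Aqp3 was not called without control 8-cell library 2 or 3, and edgeR and DESeq2 did not call it. Nor was it called when only libraries under 10 CPM of Y-linked reads were kept (limma adjusted p = 0.144). Pou5f1 rose in both groups, by 1.56 in light and by 3.23 in control, and Khdc3 likewise by 2.28 and 5.06, so that both differences were negative, at -1.68 and -2.78. Khdc3 was not called without control 8-cell library 1 or 2, or by edgeR or DESeq2. Its limma adjusted p was 0.0517 with no filter on low values and 0.0793 for libraries under 10 CPM of Y-linked reads.

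Tdgf1 fell in light (-2.83) and had 0.88 in control, a difference of -3.71 that was lost without light morula 3 or control 8-cell library 1. It was also lost when only libraries under 10 CPM of Y-linked reads were kept (-3.31, limma adjusted p = 0.135). Trim28 fell in light (-1.09) and had 0.91 in control, a difference of -2.01 ± 0.34 (limma adjusted p = 0.000233). Gapdh rose in light (2.95) and had -1.91 in control, a difference of 4.85. For Chit1, Scd3, Ccser1 and Six4, which had the largest positive differences, the light medians were 0.416 to 16.4 over both stages and the control values fell, and for Mboat1, Bbx and Lncenc1 the control values rose by 5.24 to 6.54 while the light change was not called. Among lists, cytosolic ribosomal proteins had 12 of 85 members with a more negative change in light and 0 with a more positive one. In control, 58 of 84 rose, with a median of 1.16. The 12 became 6 when only libraries under 10 CPM of Y-linked reads were kept. The 13 proteins encoded by mitochondrial DNA went the other way, with 2 of 13 called more positive in light, mt-Co1 (1.27) and mt-Nd1 (1.21), and 0 more negative. In control, their summed scaled value fell from a median of 15034 in the 4 8-cell libraries to 8719 in morulae. In light, the medians of this sum were 6073 and 6679. Their median difference was 1.21, and 8 of the 13 had an unadjusted p under 0.05 in limma, against 2654 of 17475 over all genes. The 2 calls became 0 on the deposited scale and by edgeR. Of the other lists, pluripotency genes had 4 of 23 called more negative in light and mitochondrial ribosomal proteins 4 of 77, and no list but these and the cytosolic ribosomal proteins had more than 2 called in 1 direction.

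**Figure D5:**
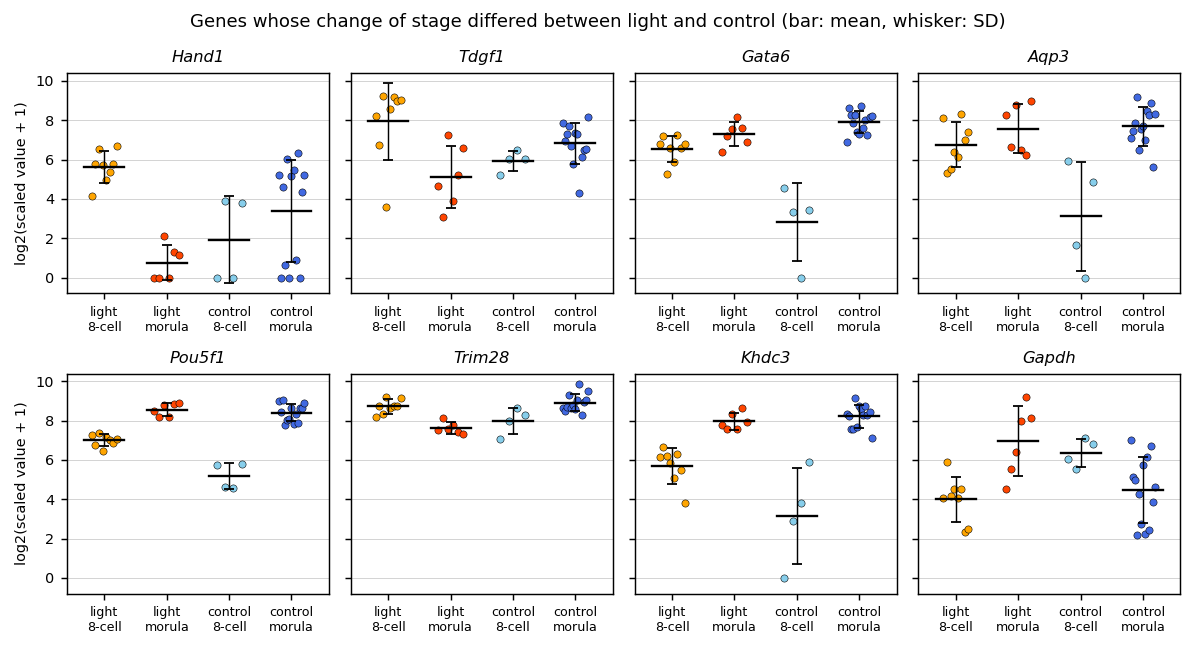
Log2(scaled value + 1) of 8 genes whose change of stage differed between light and control, 1 point per library, in 8 light 8-cell, 6 light morula, 4 control 8-cell and 13 control morula libraries. Bars are means and whiskers are SD. Gata6 lies lower in the 4 control 8-cell libraries than in all others, and Hand1 is low in all light morulae and spread widely in control.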

How the data were processed

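RNA of mouse embryo libraries was sequenced by SMART-seq2 (polyA RNA). Per the labels, the authors aligned reads with HISAT2 and counted them with HTSeq 0.9.1 on build mm9. The deposited signal values for 26414 genes in 67 libraries are not raw counts: after division by 1 constant per library, at least 99.96% of the values of a library were whole reads within a tolerance of 0.01, with no sign of the division by gene length that RPKM, the unit in the paper's methods, implies. Precision is limited by the depth given in the report.

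CT010467.1 and Gm42418 were left out, since the deposited scale rests on such loci, and each library was divided by its median ratio over 4183 genes above 0 in all 31 8-cell and morula libraries. Genes with values above 1 in 3 or more libraries were tested by limma 3.58.1 (trend) in R 4.3.3 on log2(scaled value + 1), a scale that understates changes of low genes, and were called with an adjusted p under 0.05 and a 2-fold change. Light and control were fitted apart, and the difference of their changes by an interaction term. No covariate was used. Alternatives were the deposited scale, quantile normalization, thinning to 453578 reads, other pseudocounts and filters, edgeR 4.0.16 and DESeq2 1.42.0 on the recovered reads, a Wilcoxon test, library weights, 1 fit over all groups, a replicate block, libraries with few Y-linked reads, and each library left out. Fits were tested on simulated data. Python 3.11.15 (numpy 2.4.6, pandas 2.3.3, scipy 1.17.1, matplotlib 3.10.9) served for the rest.

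Genes named are the largest non-overlapping changes with a mean of at least 20 that held with every library left out, key genes of the transition, up to 3 called members of each list with the smallest p, and the 4 largest differences from control each way. Other list members were named after their values were seen, and a few genes are not reported here. The libraries compared and the lists were chosen with earlier results of these data known.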

Additional observations from a re-analysis of the deposited data

Results flagged for a closer look

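Values far from the rest of their group were looked for in 227 groups of 6 or 8 light libraries by Dixon's ratio, the gap to the nearest library over the range of the group on the log2 scale, with limits of 0.625 for 6 and 0.526 for 8 libraries. It found 18, and chance gives about 1 in 20 groups. In 8-cell libraries, library 8 stood low for Tdgf1 (ratio 0.565), Trp53 (0.572) and Fgfr4 (0.793) and high for Ccna2 (0.587), Ei24 (0.711, at 1806 against 630 in the next library) and Chit1 (0.648). Library 5 stood low for Gata4 (0.615) and Tdpoz4 (0.635) and high for Atp5o (0.559). Library 11 stood low for Txn1 (0.562) and Bbx (0.567), and library 6 held the 1 read of Sox2 (1). In morulae, morula 1 stood low for Tfcp2l1 (0.662, at 185 against 534) and Tet2 (0.712, at 108 against 247) and high in its Gm42418 reads per read of CT010467.1 (0.638, at 1.67). Morula 9 stood low for Pmaip1 (0.639), and morula 5 held the remaining reads of Fgfr4 (1) and Tdpoz4 (1).

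The change of stage differed between light and control, by the interaction term, for 15 of the genes chosen by the rules for naming. The genes with the 4 largest differences each way were named by this same test, so that their calls were fixed by the choice. Among all genes tested, 456 of 17475 (2.61%) were called. The difference was negative for Hand1 (-6.32), Mboat1 (-6.48), Bbx (-6.13), Lncenc1 (-5.92), Gata6 (-4.30), Aqp3 (-3.77), Tdgf1 (-3.71), Khdc3 (-2.78), Trim28 (-2.01) and Pou5f1 (-1.68) on the log2 scale. It was positive for Chit1 (6.79), Scd3 (6.50), Ccser1 (5.75), Six4 (5.75) and Gapdh (4.85). Chit1, Aqp3 and Khdc3 were called by neither edgeR nor DESeq2, and Tdgf1, Aqp3 and Khdc3 were not called for libraries with few Y-linked reads. The causes of these differences were not tested.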

How the results depend on the processing

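The light count of 1701 lay between 1272 with no filter on low values and 1860 by DESeq2 over scaling, depth, pseudocount, filters, edgeR, DESeq2, Y-linked reads and library weights, and between 1428 and 1806 with 1 library left out. It was 866 by the Wilcoxon test, 1048 in 1 fit over the 4 groups and 522 with the replicate block, and the cause was not tested. The block kept only libraries whose number occurs at both stages, 5, 6, 9 and 12 in light and 1 and 2 in control. Its counts therefore also rest on fewer libraries than the others. The control count of 2436 was 306 with the replicate block and 1594 to 2442 with 1 library left out. The interaction count of 456 was 298 for genes with a mean above 5, 247 for libraries with few Y-linked reads, 6 with the replicate block and 377 to 566 with 1 library left out. Library numbers gave little sign of pairing: deviations of same-numbered libraries correlated at -0.02, -0.03, 0.02 and 0.01 in light and at 0.01 and 0.02 in control. In light, no same-numbered library was the closest match of its partner. For control morulae 1 and 2 the same-numbered 8-cell library was the closest, but not the reverse. The pairs are few, and the block keeps few degrees of freedom. The share of distance between stages was 18.3% to 31.2% over other settings and 21.8% to 23.7% with 1 library left out.

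The 171 genes followed were the named genes and all called members of the lists, so that most were called by choice. Some had been named because their calls held with every library left out. Of the 171, 146 were called, 101 of them with every library left out, 116 by edgeR, 135 by DESeq2 and 123 on the deposited scale. Still called were 103 of 145 for libraries with few Y-linked reads, 102 in 1 fit over the 4 groups, 95 by the Wilcoxon test and 64 with the replicate block. Among all genes tested, 1075 of the 1701 calls held with every library left out. In every setting other than the block, 63 were called. With few Y-linked reads, 3 pluripotency genes fell in place of 6 and 3 proteasome genes rose in place of 6. Calls lost in at least 5 of 14 fits without 1 library were those of Pdk1, Mrpl13, Mrpl42, Ajuba, Crb3, Pmvk, Ndufa5, Slc2a1, Cdc25c, Cdkn1c, Ndufv3, Atp5e, Myl12a, Ndufa4, Ndufb9, Ndufc1, Ndufs7 and Sod1. No called gene changed sign. Genes not called did so: Chit1 had -0.11 by edgeR and -0.076 by DESeq2, Ccser1 0.15 and Bbx -0.39 with the replicate block, Bbx -0.015 to 0.97 and Lncenc1 -1.17 to 0.069 with 1 library left out. Depth limits low genes, where 3 reads are the floor.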

Other observations

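Of 35 tested proteasome subunits, 6 rose and 1 fell, with a median log2 fold change of 0.35. Psmb5, a catalytic subunit, had values of 31.1 to 75.7 in 8-cell libraries and of 76.5 to 157 in morulae, and Psmc3, an ATPase of the cap, rose by 1.39 ± 0.32, while Psmb10, a catalytic subunit of the immunoproteasome, fell by 1.92 ± 0.56. Psmb10 was not called without morula 3 (-1.70). The 6 higher became 3 without morula 1, 3 by edgeR and 2 on the deposited scale. Of 77 tested mitochondrial ribosomal proteins 5 rose and 2 fell, near or below the share over all genes (5.71% and 5.85%), and 3 to 6 rose with 1 library left out. Mrpl30 had values of 11.9 to 31.1 and then of 41.0 to 111, and Mrpl46 of 50.1 to 95.6 and then of 7.65 to 33.8, so the stages did not overlap for either. Over all genes tested, 1.79% were higher and 2.07% lower without overlap. In cholesterol synthesis, 3 of 22 tested rose and 0 fell, with Pmvk (2.10 ± 0.67) and the regulator Insig1 (1.44 ± 0.38) among those that rose. Pmvk lost its call in 8 of 14 fits without 1 library (1.87 to 2.09). Among 34 nucleolar genes of ribosome biogenesis, 0 rose, and Nolc1 and Ubtf, a factor of RNA polymerase I, fell by 1.12 ± 0.19 and by 1.05 ± 0.24, a share near that over all genes (5.85%). Nolc1 was not called without morula 9 (-0.96), nor Ubtf without morula 3 or 6 (-0.92 to -0.91).

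Markers of cells around or outside the embryo were low. Summed scaled values of the cumulus cell list were 0 to 2.76 in 8-cell libraries and 0 to 6.10 in morulae, with 1 of 9 genes tested. Of 8 sperm genes only Odf2 was tested. It also serves centrioles of other cells, and it rose from a median of 8.06 (0.285 to 29.6) to 55.0 (33.2 to 70.6). Of the 4 Y-linked genes tested, limma, edgeR and DESeq2 called 0, and 0 had an unadjusted p under 0.05 in limma.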
